A study of Mus musculus with 6 samples.

Results

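The genes of oxidative phosphorylation, which encode complexes I to V of the inner mitochondrial membrane, were followed in the epidermis of Rptor cKO and wild-type mouse embryos. Members were the genes whose platform symbol starts with Nduf, Uqcr, Cox4, Cox5, Cox6, Cox7, Cox8 or Atp5, together with Sdha, Sdhb, Sdhc, Sdhd and Cyc1. The name rule found 94 genes among the 30063 genes with a single symbol on the array, each read by its brightest probe set. They comprised 41 genes of complex I, 4 of complex II, 9 of complex III, 20 of complex IV and 16 of complex V. The other 4 were 3 pseudogenes and Ndufb4b, a copy of Ndufb4.

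Epidermal sheets were taken at E18.5 from 3 embryos with a conditional knockout of Rptor (arrays 1 to 3) and from 3 wild-type embryos (arrays 4 to 6). All were littermates sorted by eye and by genotyping, and the sheets were lifted from the dermis with ammonium thiocyanate. Rptor encodes Raptor, the substrate-binding subunit of the kinase complex mTORC1. The driver of the Cre recombinase, the deleted exons and any allele carried by the wild-type embryos are not given in the sources that were used. The series asks how mTORC1 acts on AKT, on lysosome formation and on EGFR turnover.

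Complex I passes electrons from NADH to ubiquinone, complex II passes them from succinate, complex III hands them to cytochrome c, and complex IV reduces oxygen. The proton gradient they build drives complex V, the ATP synthase. Most subunits are encoded in the nucleus and a small set of core subunits in mitochondrial DNA, so that assembly draws on both genomes. In cultured cells mTORC1 is known to favour the translation of nuclear mRNAs for complexes I and V, and in muscle cells it acts on their transcription through YY1 and PGC-1 alpha.

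Rptor itself had log2 values of 6.54, 6.82 and 6.72 in Rptor cKO and 6.98, 7.46 and 7.004 in wild type, and the groups did not overlap. Its difference of -0.46 (SE 0.15) did not pass the limma test (Benjamini-Hochberg adjusted p = 0.0988). Of the keratinocyte markers, Krt5 and Krt14 read 10.37 or more on every array, and Trp63 was measured too. Xist and the Y-linked genes read Rptor cKO arrays 1 and 3 as female, and Rptor cKO array 2 and the wild-type arrays as male. The keratinocyte markers of the upper layers, Krt1, Krt10 and Lor, were lower in Rptor cKO, with log2 differences of -2.07 (SE 0.39), -1.76 (SE 0.35) and -1.47. Dermal fibroblast markers averaged 6.71 to 7.21 in Rptor cKO and 6.23 to 6.38 in wild type, with 4 of 6 past the threshold as higher. Skeletal muscle markers averaged 5.60 to 6.17 in Rptor cKO and 5.24 to 5.80 in wild type, with none of 9 past the threshold in limma (6 higher at unadjusted p under 0.05). Of the other marker lists, 1 of 4 brown fat genes (Elovl3) and 2 of 5 Langerhans and macrophage genes (Csf1r and Ptprc) were lower and 1 of 5 endothelial genes (Pecam1) was higher. None of 5 melanocyte genes passed (2 higher at unadjusted p under 0.05), nor the 1 red cell gene measured. The part of these cell types in the results below was not tested. In such bulk sheets, fewer cells of a type and less RNA per cell cannot be told apart.

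Nuclear genes of oxidative phosphorylation differed little, with a few falls past the threshold, most of them lost without Rptor cKO array 2. Of 94 members, 11 were lower in Rptor cKO and none was higher at an adjusted p under 0.05 in limma (26 lower and 3 higher at unadjusted p under 0.05). All differences are log2 values of Rptor cKO minus wild type with a moderated SE, and SD is over 3 arrays. Across all 30063 genes, 5.96% were lower and 3.64% higher. Most members read brightly, and brighter genes are called more often. Among the 9214 genes with a mean log2 value over 6, 13.2% were lower and 7.05% higher, beside 10 lower and none higher of the 83 members that bright. The share of falling members, 11.7% of all and 12.0% of the bright ones, thus lay near that of bright genes, while no member rose.

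The median difference of the members was -0.10, against 0.05 over all genes and 0.012 over the bright genes. A difference below 0 was found for 63 of 94 members, 67.0%, and for 68.7% of the bright members, against 48.6% of bright genes. The sign of the median depended on the scaling, while it lay below that of bright genes under each scaling run. With quantile normalization the median turned to 0.0082 beside 0.090 for bright genes, and 48.9% of members lay below 0 beside 40.2% of bright genes. The 5 members still lower, 5.32%, then stood beside 10.4% of bright genes. Member shares under each scaling are over all 94 members, dim ones included. With array medians subtracted the median was -0.17 beside -0.059 for bright genes, and 77.7% lay below 0 beside 56.7%. There 9 members were lower, 9.57%, beside 13.1% of bright genes. Leaving out arrays also changed the calls over all genes, of which 1791 were lower with all arrays. Leaving out Rptor cKO array 1 left 5 lower members and 1115 lower genes in all. Leaving out Rptor cKO array 2 left 2 and 623. Without wild-type array 4 the counts were 5 and 1613, and without wild-type array 6 they were 4 and 1175.

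The groups did not overlap for 30 members that were lower and 5 that were higher in Rptor cKO. That is 31.9% and 5.32%, where all genes gave 12.5% lower and 16.5% higher. The bright members gave 31.3% and 4.82%, and bright genes 23.3% and 18.7%. Across the members, Rptor cKO array 1 held the lowest value of all 6 arrays for 34 genes, wild-type array 4 for 18 and Rptor cKO array 3 for 4. Within the Rptor cKO group, array 3 was the highest for 46 of 94 members. Within the wild-type group, array 6 was the highest for 52. Krt1 and Krt10 were highest on array 3 within the Rptor cKO group, at 11.63 and 12.11. Within the wild-type group they were highest on array 4, at 12.73 and 12.97.

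**Figure D1:**
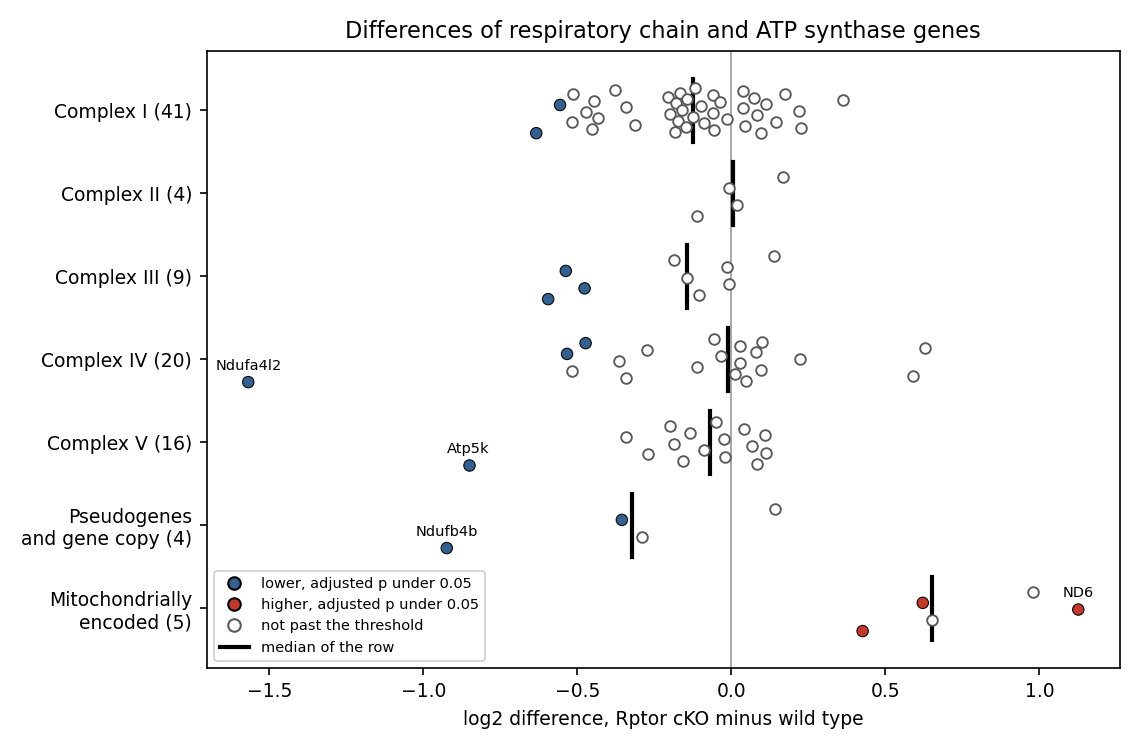
Each point is a gene, placed by its log2 difference of Rptor cKO minus wild type (horizontal axis) and its complex (rows, with the number of genes), and black bars are medians. Filled points passed an adjusted p of 0.05. Ndufa4l2 lies farthest left at -1.57, and all 5 mitochondrially encoded subunits lie right of 0.

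The promoters of 3 falling genes and of 1 gene that did not pass the test are shown, because they hold motifs of factors known to regulate nuclear respiratory genes. RefSeq (GRCm38.p6) windows of 250 bases before the start were at hand for 74 of the 94 members. Capitals mark matches, on either strand, to the motif of the factor NRF1, which is GCGCA, any base and GCGC, and to CCGGAAG of ETS factors such as GABPA. No printed window holds both motifs, but that of Sdhd, which is not printed, does. The windows of the falling genes Ndufs8, Ndufb3 and Cox5a, not printed either, hold neither. Atp5k encodes subunit e of ATP synthase, Uqcr11 and Cox6b1 subunits of complexes III and IV, and Sdha the flavoprotein of complex II.
Atp5k, chr5:108434400-108434649, minus strand: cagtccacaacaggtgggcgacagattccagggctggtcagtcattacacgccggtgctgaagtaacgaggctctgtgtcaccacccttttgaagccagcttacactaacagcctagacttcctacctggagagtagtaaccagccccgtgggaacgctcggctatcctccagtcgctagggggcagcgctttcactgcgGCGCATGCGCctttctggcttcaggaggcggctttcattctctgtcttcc
Uqcr11, chr10:80406822-80407071, minus strand: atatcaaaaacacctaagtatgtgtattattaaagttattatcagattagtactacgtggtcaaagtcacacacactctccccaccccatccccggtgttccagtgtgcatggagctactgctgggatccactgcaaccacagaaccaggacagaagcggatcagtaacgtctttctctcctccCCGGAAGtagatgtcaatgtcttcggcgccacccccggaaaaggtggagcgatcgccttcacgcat
Cox6b1, chr7:30626115-30626364, minus strand: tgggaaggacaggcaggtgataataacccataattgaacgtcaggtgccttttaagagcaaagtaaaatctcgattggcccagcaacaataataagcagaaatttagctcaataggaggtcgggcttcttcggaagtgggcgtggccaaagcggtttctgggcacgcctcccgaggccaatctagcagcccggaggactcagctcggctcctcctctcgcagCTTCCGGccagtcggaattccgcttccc
Sdha, chr13:74350241-74350490, minus strand: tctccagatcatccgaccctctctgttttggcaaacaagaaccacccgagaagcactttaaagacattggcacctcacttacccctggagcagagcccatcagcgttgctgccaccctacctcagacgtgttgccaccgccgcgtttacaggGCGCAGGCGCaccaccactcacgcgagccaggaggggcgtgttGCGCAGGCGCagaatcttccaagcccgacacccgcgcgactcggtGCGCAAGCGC

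The NRF1 motif occurred in 12 of 79 member windows, 15.2%, and in 3.74% of all 32851 promoter windows. The ETS motif occurred in 13 of 79 member windows, 16.5%, and in 6.91% of all windows. The motifs AAGATGG of YY1 and TCAAGGTCA of oestrogen-related receptors were searched on both strands too. They were found in 2 and 1 member windows, 2.53% and 1.27%, against 4.49% and 0.387% of all windows. Of 7 falling members with a window, 1 held the NRF1 motif (Atp5k) and 2 the ETS motif (Cox6b1 and Uqcr11). Sdha held 3 NRF1 matches and differed by -0.0073 (SE 0.14). A match is a description of these letters and not a measured site.

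Ndufa4l2 had the largest fall of the members. It encodes a paralogue of the complex IV subunit NDUFA4 that is known to be induced by hypoxia through HIF1, and it is grouped with complex IV by that relation alone. Ndufa4l2 (chromosome 10, 127509274 to 127517154, mm10) read 4.86, 4.97 and 5.41 in Rptor cKO and 6.65, 6.91 and 6.39 in wild type. Every Rptor cKO array lay far below every wild-type array. The fall was 2.97-fold, a difference of -1.57 (SE 0.18, limma adjusted p = 0.00244). It passed the threshold under all 12 alternatives run, with differences from -1.73 to -1.44.

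Complex I differed for 2 of its 41 genes, 4.88%, where 13.2% of bright genes were lower. Of 6 core subunits, 27 accessory subunits and 8 assembly factors, 1, 1 and 0 were lower in Rptor cKO and none was higher. The median difference was -0.13, and -0.0034 with quantile normalization. Ndufs8 encodes a core subunit that carries iron-sulfur clusters. It read 7.17, 7.48 and 7.81 in Rptor cKO and 8.06, 8.13 and 8.17 in wild type. The spread was wider in Rptor cKO (SD 0.32) than in wild type (SD 0.055), and the groups did not overlap. The difference was -0.63 (SE 0.15, limma adjusted p = 0.0384), lost under 8 of 12 alternatives, including quantile normalization (range of adjusted p 0.0102 to 0.134).

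Ndufb3, an accessory subunit of the membrane arm, read 6.23, 5.96 and 6.11 in Rptor cKO and 6.70, 6.46 and 6.80 in wild type. The groups did not overlap, and the difference was -0.56 (SE 0.12, limma adjusted p = 0.0238), lost under 5 of 12 alternatives. The other core subunits did not pass the test. Ndufs3, of the peripheral arm, differed by -0.18 (SE 0.083). Ndufs1, the largest core subunit, differed by -0.14 (SE 0.16), and Ndufv1, which binds NADH, by -0.099 (SE 0.11). Ndufv2 and Ndufs7, both with iron-sulfur clusters, differed by 0.073 (SE 0.098) and 0.15 (SE 0.087).

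Among the remaining accessory subunits, Ndufa9, Ndufv3, Ndufa1, Ndufs6 and Ndufa13 had differences from -0.52 to -0.45 with groups that did not overlap, and adjusted p from 0.0621 to 0.0964. Ndufa1 is X-linked and read 8.58, 9.07 and 9.02 on Rptor cKO arrays 1, 2 and 3. Array 2, the only male one of these, differed from wild type by -0.29, against -0.47 over all arrays. The part of embryo sex was not tested. Over complex I, 15 of 41 genes, 36.6%, had groups that did not overlap and were lower in Rptor cKO. Another 4, 9.76%, were higher, where bright genes gave 23.3% lower and 18.7% higher. These 4, Ndufs7, Ndufb5, Ndufab1 and Ndufb7, were higher on every Rptor cKO array than on any wild-type array. Their differences were 0.15 to 0.23, and none passed the test. Log2 differences of the 8 assembly factors ranged from -0.43 for Ndufaf3 to 0.36 for Ndufaf4 and did not pass the test either.

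Complex II, the only complex without mitochondrially encoded subunits, showed no difference past the threshold in limma for any of its 4 genes (none at unadjusted p under 0.05). The flavoprotein gene Sdha read 6.85, 6.58 and 6.72 in Rptor cKO and 6.50, 6.69 and 6.99 in wild type. The iron-sulfur subunit gene Sdhb read 7.26, 7.42 and 7.52 in Rptor cKO and 7.38, 7.55 and 7.61 in wild type. The groups overlapped for both. The membrane anchors Sdhc and Sdhd differed by 0.020 (SE 0.11) and 0.17 (SE 0.11), with adjusted p from 0.436 to 0.984 for the 4 genes. With 3 arrays a group, small differences in complex II were not detectable.

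Complex III held 3 falls among 9 genes, 33.3% beside 13.2% of bright genes, all of small accessory subunits. Uqcrq read 7.23, 7.44 and 7.66 in Rptor cKO and 8.01, 8.06 and 8.05 in wild type. The wild-type values were almost alike (SD 0.029), and the groups did not overlap. The difference was -0.59 (SE 0.12, limma adjusted p = 0.0176), and the call was lost when Rptor cKO array 2 or wild-type array 6 was left out, or with the male embryos alone.

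Uqcrb, which lies beside the ubiquinone site, read 7.86, 7.83 and 7.85 in Rptor cKO and 8.58, 8.11 and 8.48 in wild type. Here the Rptor cKO values were the ones that were alike (SD 0.014). The difference was -0.54 (SE 0.13, limma adjusted p = 0.0356), lost under 8 of 12 alternatives. Uqcr11 read 7.06, 7.26 and 7.24 in Rptor cKO and 7.77, 7.63 and 7.59 in wild type, groups that did not overlap. Its difference was -0.48 (SE 0.10, limma adjusted p = 0.0218), lost under 6 of 12 alternatives. With quantile normalization 1 of the 3 genes of complex III still passed.

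The subunits of complex III that carry electrons did not pass the test. The Rieske protein gene Uqcrfs1 differed by -0.10 (SE 0.14) and the cytochrome c1 gene Cyc1 by -0.015 (SE 0.12). The core proteins Uqcrc1 and Uqcrc2 differed by -0.18 (SE 0.15) and 0.14 (SE 0.11). Cyc1 read 9.18, 9.50 and 9.36 in Rptor cKO and 9.20, 9.49 and 9.38 in wild type, and so overlapped. Cycs, the soluble cytochrome c that links complexes III and IV, differed by 0.025 (SE 0.20).

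**Figure D2:**
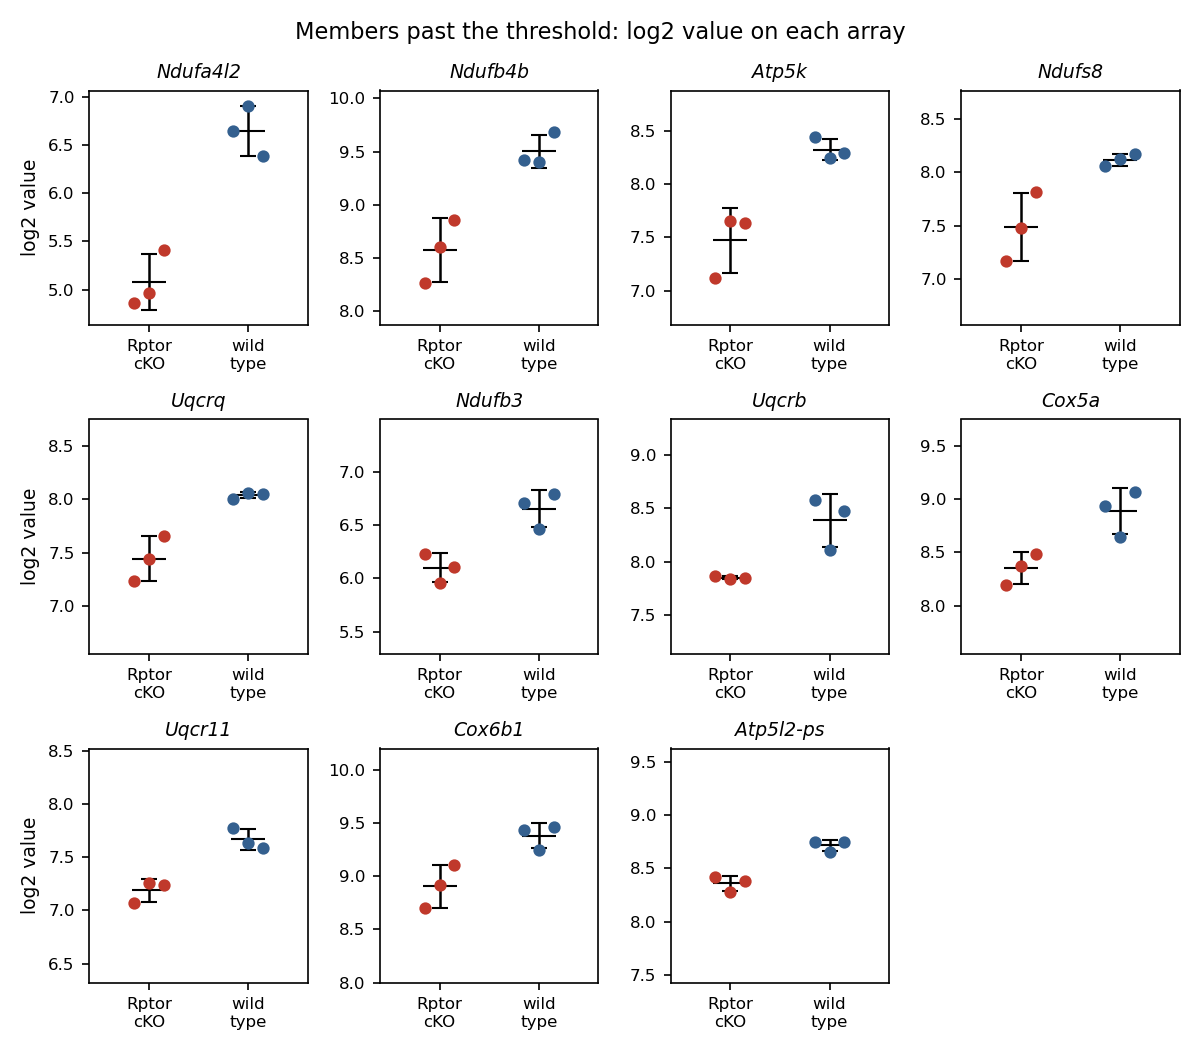
Log2 values (vertical axes, each spanning at least 2.2 log2 units) of the 11 members past the threshold on the 3 Rptor cKO arrays (red, left) and the 3 wild-type arrays (blue, right), with mean and SD in black. No panel has overlapping groups, and the gap is widest for Ndufa4l2.

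In complex IV, 3 of 20 genes were lower, Ndufa4l2 among them. That is 15%, beside 5.96% of all genes and 13.2% of bright genes. Cox5a, a nuclear subunit on the matrix side, read 8.19, 8.37 and 8.49 in Rptor cKO and 8.94, 8.65 and 9.07 in wild type. Cox6b1, on the side of the intermembrane space, read 8.70, 8.91 and 9.10 in Rptor cKO and 9.43, 9.25 and 9.46 in wild type. The groups did not overlap for either gene. The differences were -0.53 (SE 0.13, limma adjusted p = 0.0422) for Cox5a and -0.47 (SE 0.12, limma adjusted p = 0.0490) for Cox6b1. Each was lost under 9 of 12 alternatives, among them the subtraction of array medians and quantile normalization. Both lay close to the threshold.

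Several subunits of complex IV exist as a form found in most tissues and as forms of muscle, brown fat, lung or testis. Cox4i1 and Cox4i2, the common form and a form known from lung, differed by 0.046 (SE 0.11) and 0.029 (SE 0.098). Cox6a1 and Cox6a2, the common and the muscle form, differed by -0.34 (SE 0.14, adjusted p = 0.198) and 0.096 (SE 0.16). Cox7a2 and Cox7a1, likewise common and muscle form, differed by -0.11 (SE 0.087) and 0.012 (SE 0.11). None of these passed the test. The testis form Cox6b2 differed by 0.22 (SE 0.16), and Cox7b and its testis form Cox7b2 by 0.081 (SE 0.098) and -0.056 (SE 0.10).

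Cox8a, the common form, read 9.24, 9.05 and 9.14 in Rptor cKO and 9.61, 9.30 and 9.61 in wild type. It was lower on each Rptor cKO array but did not pass the test (-0.36, SE 0.11, adjusted p = 0.0899). Cox8b, the form of heart, skeletal muscle and brown fat, read 4.18, 5.08 and 4.16 in Rptor cKO and 4.11, 3.71 and 3.72 in wild type. Its highest value came from Rptor cKO array 2, where the muscle markers also had their highest mean, 6.17, and the part of muscle was not tested. The difference of 0.63 (SE 0.24) had an adjusted p of 0.164, and on 2 arrays it read below the median negative control. Cox8c of testis differed by -0.035 (SE 0.13). Ndufa4, the common form beside Ndufa4l2, read 9.06, 9.04 and 9.22 in Rptor cKO and 10.05, 9.21 and 9.60 in wild type, a difference of -0.52 (SE 0.19, adjusted p = 0.142) with overlapping groups.

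Cox7a2l, a factor that joins complexes III and IV into supercomplexes, stood on the other side. It read 7.996, 8.48 and 8.46 in Rptor cKO and 7.36, 8.03 and 7.76 in wild type. The lowest Rptor cKO array lay just below the highest wild-type array. The difference of 0.59 (SE 0.19) did not pass the test (limma adjusted p = 0.1003).

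**Figure D3:**
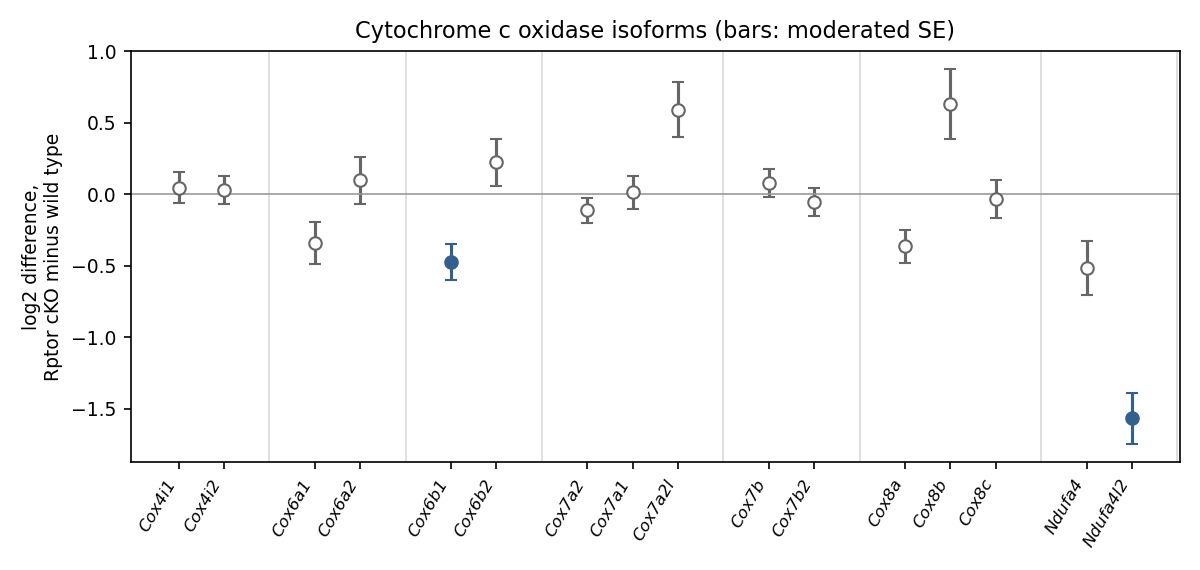
Log2 difference of Rptor cKO minus wild type with its moderated SE (vertical axis) for genes of complex IV that have several forms, grouped between grey lines. Filled points, Cox6b1 and Ndufa4l2, passed the threshold, and open points did not.

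Of the 16 genes of complex V, 1 was lower and none higher (3 lower and 0 higher at unadjusted p under 0.05). That is 6.25% lower, beside 13.2% of bright genes. Atp5k encodes subunit e, which helps ATP synthase to form dimers. Atp5k read 7.12, 7.65 and 7.64 in Rptor cKO and 8.44, 8.24 and 8.29 in wild type. The groups lay far apart, and the fall was 1.81-fold, a difference of -0.85 (SE 0.15, limma adjusted p = 0.0121). It passed under 11 of 12 alternatives and missed the threshold with the male embryos alone (adjusted p = 0.0885). The subunits of the catalytic head did not pass the test. Atp5b, the catalytic beta subunit, differed by 0.11 (SE 0.099) and Atp5a1, the alpha subunit, by -0.025 (SE 0.098).

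Atp5g1, Atp5g2 and Atp5g3 all encode subunit c of the rotor ring. They differed by -0.050 (SE 0.093), 0.068 (SE 0.099) and 0.11 (SE 0.096), within the replicate spread. The brightest probe set named Atp5g2 lies on chromosome 7, while the gene lies on chromosome 15. The probe set on chromosome 15 differed by -0.0020. The same was seen for Atp5l, read from chromosome 5 although the gene lies on chromosome 9, so both may be read through copies.

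The 4 copies held 2 of the 11 falls, so that 9 of 90 members, 10.0%, were lower without them. Ndufb4b is a copy of Ndufb4, annotated as protein-coding, on chromosome 19 (25033108 to 25033578, mm10). It read 8.27, 8.61 and 8.86 in Rptor cKO and 9.42, 9.40 and 9.68 in wild type. The groups did not overlap and the difference was -0.92 (SE 0.16, limma adjusted p = 0.0103), lost only without Rptor cKO array 2 (adjusted p = 0.0503) among the 12 alternatives. The pseudogene Atp5l2-ps differed by -0.36 (SE 0.088, limma adjusted p = 0.0414), lost under 9 of 12 alternatives. Probes of such copies may bind the RNA of the parent gene, so these values are uncertain as to their source. A probe set that names Ndufb4 together with Gm3244, left out by the name rule, differed by -0.42, and its groups did not overlap. Probe sets of Atp5l on chromosome 9 differed by 0.23 and -0.093, with overlapping groups.

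The measured subunits encoded in mitochondrial DNA read higher in Rptor cKO, while every nuclear member that passed the test was lower. A probe set with a single symbol read 5 of the 13 such subunits, and 3 of the 5 were higher in Rptor cKO. Of bright genes, 7.05% were higher. ND6 of complex I read 8.37, 7.88 and 7.50 in Rptor cKO and 7.08, 6.63 and 6.66 in wild type. COX1, the catalytic subunit of complex IV, read 12.77, 12.67 and 12.61 in Rptor cKO and 12.28, 11.80 and 12.11 in wild type. COX2, which takes the electron from cytochrome c, read 6.80, 6.94 and 6.88 in Rptor cKO and 6.51, 6.39 and 6.44 in wild type. The groups did not overlap for any of these genes.

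The rises were 1.13 (SE 0.22, limma adjusted p = 0.0160) for ND6, 0.62 (SE 0.13, adjusted p = 0.0225) for COX1 and 0.43 (SE 0.089, adjusted p = 0.0217) for COX2. ND2 and ND3, of complex I, were also higher on each Rptor cKO array than on any wild-type array, by 0.65 (SE 0.18, adjusted p = 0.0587) and 0.98 (SE 0.32, adjusted p = 0.101), and did not pass the test. The median of the 5 genes was 0.65, 0.58 with array medians subtracted and 0.67 with quantile normalization. With quantile normalization COX1 missed the threshold (adjusted p = 0.0919). None of the 5 passed when Rptor cKO array 2 was left out (median 0.63) or when wild-type array 6 was (median 0.66). When Rptor cKO array 1 or wild-type array 5 was left out, 2 passed (medians 0.68 and 0.54). The 5 genes lie on 1 molecule, with ND6 on the other strand from the rest, and are not independent of each other.

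**Figure D4:**
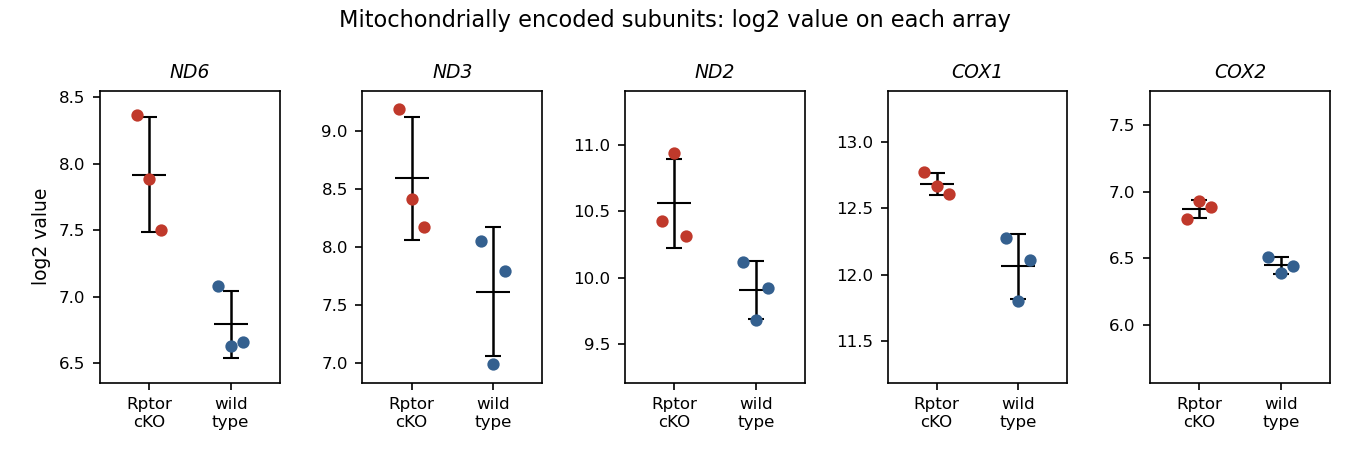
Log2 values (vertical axes, each on a scale of its own) of 5 mitochondrially encoded subunits on the 3 Rptor cKO arrays (red, left) and the 3 wild-type arrays (blue, right), with mean and SD in black. Each Rptor cKO array lies above each wild-type array in all 5 panels.

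Genes that serve the same complexes under other names were read beside the members. Of 34 assembly factors outside the name rule, 4 were lower and none higher (2 higher at unadjusted p under 0.05, median -0.15). That is 11.8% lower, beside 5.96% of all genes and 13.2% of bright genes. Acad9, an assembly factor of complex I, read 6.72, 6.46 and 6.87 in Rptor cKO and 7.63, 7.98 and 8.14 in wild type, a 2.35-fold fall (-1.23, SE 0.16, limma adjusted p = 0.00393). The others were Pet100 (-0.80, SE 0.17) and Cox19 (-0.49, SE 0.12), which act on complex IV, and Tmem126b (-0.51, SE 0.13), which acts on complex I. The count was 1 without Rptor cKO array 1, Rptor cKO array 2 or wild-type array 5, and 2 without wild-type array 6.

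Of 17 further genes around the respiratory chain, 3 were lower and none higher (2 higher at unadjusted p under 0.05). That is 17.6% lower, beside 13.2% of bright genes. Higd1a, a small membrane protein induced by hypoxia that binds respiratory complexes, read 7.43, 7.12 and 7.53 in Rptor cKO and 9.23, 9.29 and 9.69 in wild type. This 4.12-fold fall (-2.04, SE 0.15, limma adjusted p = 9.3e-04) exceeded that of any member. Its relative Higd2a fell by 0.74 (SE 0.16), and Etfdh, which feeds electrons from fatty acid oxidation to ubiquinone, fell by 0.56 (SE 0.11).

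Fatty acid oxidation supplies the chain with electrons. Of its 15 genes, 6 fell and none rose, and 14 had a difference below 0 (median -0.52, and -0.41 with quantile normalization). The falls are 40%, beside 5.96% of all genes and 13.2% of bright genes. Cpt2, which reforms acyl-CoA inside mitochondria, read 5.89, 5.98 and 6.34 in Rptor cKO and 6.98, 6.91 and 7.41 in wild type, a fall of 1.03 (SE 0.17, limma adjusted p = 0.00887). Acadvl and Acadm, dehydrogenases of very long and medium chains, fell by 0.75 (SE 0.14) and 0.45 (SE 0.094), and Hadha of the trifunctional protein fell by 0.59 (SE 0.098). Without Rptor cKO array 2 none of the 15 passed, although the median was -0.45. When Rptor cKO array 1 or wild-type array 6 was left out, 3 passed, and with the male embryos alone 1 passed (median -0.64). The difference between this list and the members was not tested.

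The other mitochondrial lists held few calls, where bright genes gave 13.2% lower and 7.05% higher. Of 18 genes of the citric acid cycle and pyruvate oxidation, Ogdh (-0.92, SE 0.12) was lower and Idh3g (0.44, SE 0.11) higher. Of 24 genes of protein import, Tomm22 (-0.35, SE 0.089) was lower and Timm9 (0.44, SE 0.094) higher. Of 80 genes named as mitochondrial ribosomal proteins, Mrps18b (0.33, SE 0.085) was higher and none was lower, with a median of -0.093. At unadjusted p under 0.05, 13 of these were lower and 4 higher. Of 12 genes of mitochondrial shape and cristae, Phb2, a prohibitin of the inner membrane, was higher (0.47, SE 0.10) and none was lower. At unadjusted p under 0.05, 4 of the 12 were lower and 1 higher. The groups did not overlap for 4 that were lower and 1 that was higher.

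Among 22 regulators of mitochondrial biogenesis, 1 was higher and none lower (5 higher and 1 lower at unadjusted p under 0.05). That is 4.55% higher, beside 3.64% of all genes and 7.05% of bright genes. Ppargc1b, the coactivator PGC-1 beta, read 6.58, 6.73 and 6.55 in Rptor cKO and 6.00, 5.81 and 5.98 in wild type. The rise was 1.61-fold (0.69, SE 0.099, limma adjusted p = 0.00579). It missed the threshold with the male embryos alone (adjusted p = 0.0537) and passed in the other 11 alternatives. Ppargc1a, for PGC-1 alpha, differed by -0.25 (SE 0.16, adjusted p = 0.382). The transcription factors Nrf1 and Gabpa differed by 0.19 (SE 0.089) and -0.077 (SE 0.12), and Tfam, which packages and transcribes mitochondrial DNA, by 0.31 (SE 0.13, adjusted p = 0.179).

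**Figure D5:**
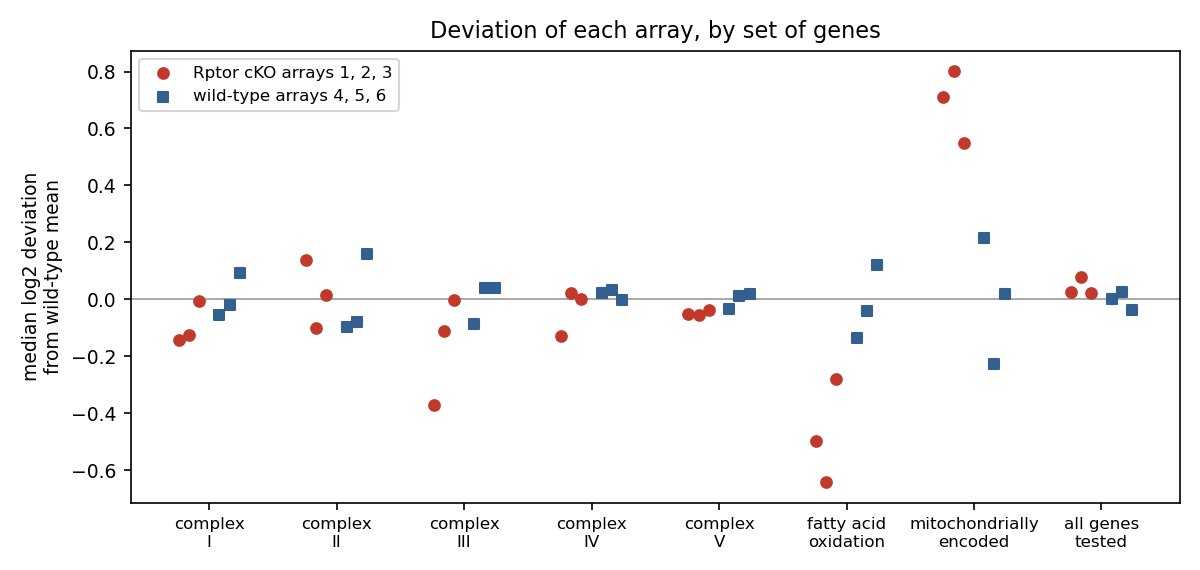
For each array, the median over a set of genes of the log2 deviation from the wild-type mean (vertical axis), with Rptor cKO arrays as red circles left and wild-type arrays as blue squares right in each set. Complexes I to V stay between -0.37 and 0.16. On the Rptor cKO arrays fatty acid oxidation lies between -0.64 and -0.28 and the mitochondrially encoded subunits between 0.55 and 0.80.

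Read array by array, the median deviation of the members from the wild-type mean was -0.13, -0.095 and -0.0038 for the Rptor cKO sheets. The wild-type sheets stood at -0.048, -0.0062 and 0.051. The groups overlapped on this measure. For the mitochondrially encoded subunits it was 0.71, 0.80 and 0.55 in Rptor cKO and 0.21, -0.23 and 0.018 in wild type. For fatty acid oxidation it was -0.50, -0.64 and -0.28 in Rptor cKO and -0.13, -0.042 and 0.12 in wild type. Both of these sets had groups that did not overlap. They were the only lists read array by array and held the largest shares of called genes among the mitochondrial lists, 60% and 40%. The missing overlap thus restates the same values and adds no evidence.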

How the data were processed

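RNA of 6 epidermal sheets was hybridised to 6 expression arrays. The values are on a log2 scale per probe set as deposited, and RMA, Partek and mm10 are named in the submitters' processing notes, with no versions. Array medians over non-control probe sets ran from 4.06 to 4.21, and a general change of RNA per cell cannot be seen in such values. Of 72688 probe sets, 6732 were controls, 30604 named 1 gene, 2146 several and 33206 none. Symbols came from the platform annotation and were updated by Entrez ID or synonym (1135 changed), with the brightest probe set kept per gene. Genes were compared with lmFit and eBayes of limma 3.58.1 (R 4.3.3), two-sided, with Benjamini-Hochberg adjustment over all 30063 genes and a threshold of 0.05. No dim gene was removed, and a permutation of 3 against 3 arrays could not go below p = 0.1. The procedure was tested on simulated data. Alternatives left out each array, kept male embryos alone, subtracted array medians, applied quantile normalization, left out dim genes, used trend and robust moderation, or averaged probe sets.

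The members and lists were chosen with earlier results of these data known. Named genes were Rptor, the passing members of each complex with the smallest p (up to 5 in each direction, or 2 where none passed), the catalytic subunits, the isoforms, up to 4 passing genes in each direction of each other list, and Ppargc1a, Nrf1, Gabpa, Tfam and Cycs. Other members named, the promoters and the bright-gene background (mean over 6) were chosen after values were seen. Atp5c1 and Esrra were not analysed here. Slide and scan date were not used, so batches were not tested. The series calls the 3 samples of a group biological replicates, and the number of arrays limits the precision.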

Additional observations from a re-analysis of the deposited data

How the results depend on the processing

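No paired analysis was possible because the groups share no replicate number. Of the 11 falls, Ndufa4l2 kept its call in all 12 alternatives, Atp5k and Ndufb4b in 11 and Uqcrq in 9. With 1 array left out in turn, lower members numbered 2 to 10, all lower genes 623 to 1629 and all higher genes 277 to 853. The falls ranged from 0 to 2 in complex I, 0 to 3 in complex III, 1 to 4 in complex IV, and 0 to 1 among the copies. Medians then ran from -0.080 to 0.016 in complex IV and -0.093 to -0.054 in complex V. With the male embryos alone, which sets Rptor cKO array 2 against the wild type and assumes that it varies like that group, 2 members were lower and 1 higher (Cox8b of complex IV, 1.24). Falls in complexes I, III, IV and V then numbered 0, 0, 1 and 0, and 1 copy, 625 genes in all were lower and 242 higher. With array medians subtracted, the median was -0.17 for members, -0.083 for complex IV, -0.14 for complex V, -0.39 for the copies and -0.022 for all genes. Complexes I and IV then held 1 fall each, and 585 genes were higher against 1825 lower, so that 75.7% of calls were lower, against 62.1% as reported. With quantile normalization, 5 members were lower, 1 each in complexes I, III, IV and the copies among them. The medians were 0.0082 for members, -0.0034 for complex I, 0.033 for complex V and -0.17 for the copies, and 51.8% of calls were lower. With trend and robust moderation, 6 members were lower, 1 each in complexes III, IV and the copies among them. With probe sets averaged, complex V had a median of -0.037. The causes were not tested. Without the copies, an alternative chosen after seeing the data, 9 were lower.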

Other observations

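Among probe sets that the name rule leaves out, 4 name a member together with another gene. Their differences of Rptor cKO minus wild type ranged from -0.42 to 0.062. Of the 4, 1, that of Ndufb4 and Gm3244, was lower on each Rptor cKO array than on any wild-type array. Another 4 probe sets each name several mitochondrially encoded genes. They differed by 0.39 to 0.60, and 3 of the 4 were higher on each Rptor cKO array than on any wild-type array. The 4 dimmer probe sets of Atp5l, Atp5d and Atp5g2 differed by -0.093 to 0.23, and the groups overlapped for all of them.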
